A study of Mus musculus with 2 samples.

Results

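The Ccl21a-high cells described here are medullary thymic epithelial cells (mTEC) whose RNA is rich in the chemokine transcript Ccl21a and in the basal keratins Krt5 and Krt14. They were chosen by 5 thresholds on the deposited counts: at least 500 detected genes, under 15% mitochondrial UMIs, Ccl21a at 0.3% or more of the cell's UMIs, at least 2 UMIs of Krt5 and Krt14 together, and 0 UMIs of Ptprc, the leukocyte gene for CD45. A UMI (unique molecular identifier) stands for 1 captured RNA molecule. These thresholds were met by 339 of 3447 barcodes. The study profiled single thymic cells of 3 inbred mouse strains, C57BL/6 (written B6 here), BALB/c and NOD, with 2 female mice of 6 weeks per strain. The labels name no engineered allele and no treatment. After digestion and depletion of CD45-positive cells, the cells of each mouse carried their own hashtag antibody, whose short barcode marks the mouse, and the gate the labels call Pdpn-CD104-mTEClo was sorted and captured in 1 pooled droplet library. Of the 339 cells, 314 were assigned to a mouse (B6 6 and 11, BALB/c 80 and 144, NOD 34 and 39) and 25 stayed without a strain, 4 for a low hashtag total and 21 because no hashtag held 80% of the hashtag UMIs.

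Medullary thymic epithelium displays self-antigens to developing thymocytes, and its immature, keratin 5 and keratin 14 positive cells make CCL21, the ligand of CCR7 that draws positively selected thymocytes from the cortex into the medulla. Cells of this kind lie upstream of the Aire-expressing stage, at which tissue-restricted antigens are transcribed, and of the mimetic cells that adopt programs of tuft, microfold, muscle and other tissues. Medullary epithelium of this immature kind can also carry Acta2 and Tagln, genes of the actin cytoskeleton better known from smooth muscle. Signals through the receptors RANK, CD40 and lymphotoxin beta receptor drive its maturation.

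Depth was lowest for B6, which gave 17 cells in all. The Ccl21a-high cells had a median of 13805 UMIs, against 15429 in the 1495 other epithelial cells, and the summed UMIs per mouse were 118579 and 128492 (B6), 1122170 and 2049839 (BALB/c) and 507727 and 611272 (NOD). H2-Ea, a class II gene that is intact in BALB/c and defective in B6 and NOD, checked the link from hashtag to strain. It was found at 1462 and 2563 UMIs in the Ccl21a-high cells of the BALB/c mice, at 7 and 5 UMIs in those of NOD, and at 57 and 5 UMIs in those of B6. Of the 57 UMIs in B6 1, 56 lay in 1 barcode of 28391 UMIs whose leading hashtag held 81.5% of its hashtag UMIs, so that barcode went against its label. It gave 23.9% of the UMIs of B6 1. Another 34.5% came from a barcode of 40965 UMIs with 2 keratin UMIs, 105 UMIs of Tbata and 9 UMIs of Pou2f3, a transcription factor of tuft cells. Counts of called genes and the calls of list genes are therefore also given without B6 1 or without the H2-Ea barcode.

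The cells carried an epithelial, basal profile. Because the rule set these cells against the rest, the levels that follow are a description with no test, as UMIs of the gene per 1000000 UMIs of the summed cells (CPM). Epcam, the pan-epithelial adhesion molecule, stood at 1011 CPM in the Ccl21a-high cells and 1094 in the other epithelial cells, and 10 of the 339 cells had no Epcam UMI. Ccl21a itself reached 9241 CPM against 208 in the other epithelial cells, and Krt5 and Krt14 reached 2562 and 2132 against 380 and 233. Of 15 markers of immature mTEC, 12 were at least 2-fold higher than in the other epithelial cells, Ccl21a, Krt5 and Krt14 of the rule included, and 3 were at least 2-fold lower (ratios of CPM + 1, here and below). Over all 11340 genes with at least 10 CPM in either set, 7.84% were at least 2-fold higher and 17.3% at least 2-fold lower. Trp63, the transcription factor of basal epithelium, stood at 420 against 99.8 CPM, and Lifr, the receptor of leukemia inhibitory factor, at 765 against 90.9. The 3 lower markers were Plet1 (39.1 against 94.8), Cldn4 (20.3 against 125) and Cldn3 (29.1 against 186), the last 2 being tight junction claudins. The sums pool the strains in unequal shares: B6 gave 17 of 314 assigned Ccl21a-high cells (5.41%) and 357 of 1194 assigned other epithelial cells (29.9%), and NOD 23.2% and 12.8%. Counts within B6, BALB/c and NOD, in that order and over the same genes, therefore follow the pooled ones for the main lists. Of the 15 immature mTEC markers 9, 12 and 8 were at least 2-fold higher within the strains, and over all genes 11.8%, 7.35% and 8.68% were higher and 25.5%, 18.4% and 16.5% lower.

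The anchorage to basement membrane formed part of the same profile. Of 18 basal keratin and hemidesmosome genes with at least 10 CPM, 11 were at least 2-fold higher and 2 at least 2-fold lower. The 11 included Krt5 and Krt14 of the rule, and the laminin chains Lama3 (172 against 32.7 CPM) and Lamb3 (102 against 15.8 CPM). Within the strains 7, 10 and 10 of the 18 were at least 2-fold higher, and 2 were at least 2-fold lower in each. The laminin receptor integrin alpha 6 beta 4 was high too, with Itga6 at 605 against 133 and Itgb4 at 173 against 42.3 CPM. Itgb4 encodes CD104 and Pdpn encodes podoplanin, the proteins on which the sort was negative. Itgb4 had a UMI in 82.0% and Pdpn in 34.8% of the Ccl21a-high cells, against 37.9% and 6.09% of the other epithelial cells. None of 110 leukocytes in the pool (cells with Ptprc and no UMI of Epcam, Krt8, Krt18, Krt5 or Krt14, median 4887 UMIs) had a UMI of either, which allows a share of cells with a UMI of up to 2.73% at that lower depth and by counting error only. Ccl21a itself had a UMI in 15.5% of these leukocytes. Thinned to 3000 UMIs a cell, which left out 25 of the Ccl21a-high and 90 of the other cells, Itgb4 was found in 43.6% against 14.4% and Pdpn in 10.5% against 1.99%. Transcript and surface protein are different quantities, and the protein was not measured per cell in the data used here.

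**Figure D1:**
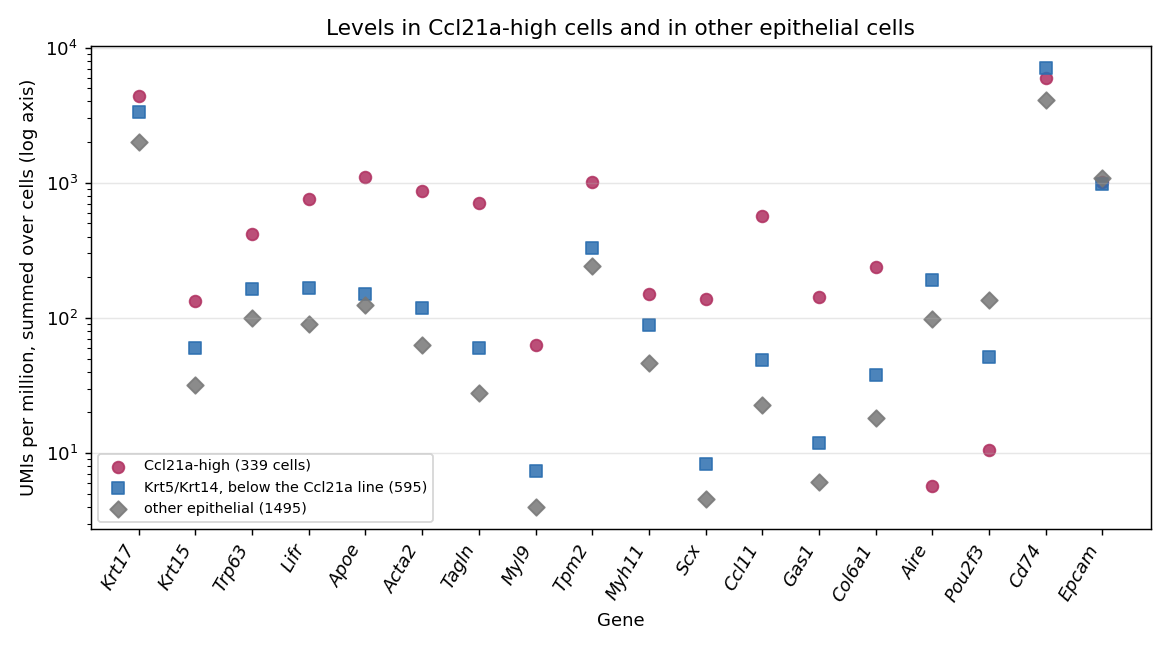
Summed level of 18 genes (CPM, log axis) in the 339 Ccl21a-high cells (circles), the 595 Krt5/Krt14-positive cells below the Ccl21a threshold (squares) and all 1495 other epithelial cells (diamonds), which include the squares. Acta2, Tagln, Scx and Ccl11 lie more than 10-fold above the other epithelial cells, Aire and Pou2f3 lie below them, and Epcam is alike in the 3 sets.

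A contractile gene group was high in the cells. Acta2 (smooth muscle alpha actin) stood at 876 CPM against 63.0 in the other epithelial cells and Tagln (transgelin, an actin-binding protein) at 703 against 27.9. Of 18 smooth muscle contractile genes with at least 10 CPM, 10 were at least 2-fold higher and 1 at least 2-fold lower; within the strains 14, 10 and 12 were higher. Acta2 stood at 299.5 against 5.29 CPM within B6, 814 against 39.3 within BALB/c and 1115 against 106 within NOD. Myl9, the regulatory myosin light chain, stood at 63.5 against 3.99, Lmod1 (leiomodin) at 54.3 against 5.49, Tpm2 (beta tropomyosin) at 1010 against 242, Cald1 (caldesmon) at 937 against 203, and Myh11 (smooth muscle myosin heavy chain) at 149 against 46.7 CPM. The group was not complete: Cnn1 (calponin) had 0 UMIs, and Myocd, the coactivator that directs the smooth muscle program, stood at 0.393 CPM. The lower gene was Smtn (smoothelin), at 7.87 against 20.3.

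Several defining genes of mural cells and fibroblasts were at or near 0, and others were higher than in the other epithelial cells. Kcnj8, Abcc9 and Higd1b, which mark pericytes, had 0 UMIs, and Pdgfrb had a UMI in 3 of 339 cells. The 9 pericyte and vascular smooth muscle genes summed to 776 CPM against 206 in the other epithelial cells and between 413 and 1097 over the 6 mice. Of the 3 with at least 10 CPM, 2 were at least 2-fold higher, Rgs5 and the Myh11 given above. Rgs5, a regulator of G protein signalling listed here as a pericyte gene, gave 595 of the 776. The other epithelial cells also expressed Rgs5 (131). Of the fibroblast genes, Col1a2 had 0 UMIs, Col1a1 stood at 0.197 and Pdgfra at 0.983, while Dcn (decorin, 69.6 against 10.7) and Fbn1 (fibrillin 1, 71.0 against 11.8) were higher. The 9 fibroblast genes summed to 149 CPM against 41.1, with 42.2 and 295.7 as the lowest and highest mouse. Of 7 endothelial genes, Tie1, Kdr, Cdh5 and Cldn5 had 0 UMIs. The collagen VI chains Col6a1 (237 against 18.2) and Col6a2 (158 against 15.9) were high, and Col6a3, the chain that joins them in the common form of collagen VI, had 0 UMIs in all 339 cells.

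Within the group, Acta2 was unevenly spread over cells. Acta2 had no UMI in 117 cells, up to 5 per 10000 UMIs in 91 and at least 5 per 10000 in 131. The tenth of the cells with the most Acta2 held 58.6% of its normalised signal, against 46.2% for Krt8, 39.9% for Lifr and 33.6% for Epcam, which the rule did not use. For Krt5 and Krt14, whose low cells the rule left out, it was 34.1% and 30.8%. Among genes found in only part of the cells, it was higher for Cxcl11 (60.5%), Tagln (64.1%) and Ccl11 (81.9%). It was lower for Scx (54.1%) and Col6a1 (40.5%), so an uneven spread was not particular to Acta2. Over the 339 cells, Tagln had the highest correlation with Acta2 (Pearson r = 0.73 on log values), followed by Myl9 (0.55), Myl6 (0.46), Tpm2 (0.45), Actb (0.43), Csrp1 (0.43), Krt7 (0.41), Ctsl (0.41), Tgfb1i1 (0.40) and S100a6 (0.40). These cells share 1 library and 6 mice and differ in depth, so r describes them and carries no p. Over the 277 cells with at least 5000 UMIs, r with Tagln was 0.74. Lifr (r = -0.08), Itgb4 (-0.00) and Col6a1 (0.01) had r near 0, and Ccl11 stood at r = -0.14.

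Each cell was then thinned to 3000 UMIs. Acta2 was then found in 157 of 314 cells. Tagln was present in 73.2% of the cells with Acta2 and 19.1% of those without, and Myl9 in 22.9% and 3.18%. Col6a1 was present in 46.5% and 48.4%, and Ccl11 in 25.5% and 34.4%. Tagln and Myl9 were thus found mostly beside Acta2, and Col6a1 and Ccl11 were not. Cells without Acta2 were shallower (median 9170 UMIs) than cells with at least 5 per 10000 (median 16521), and the part of depth in the unthinned split was not tested. Every mouse held cells of all 3 Acta2 classes, the highest class making up between 27.3% (B6 2) and 47.1% (NOD 1) of its Ccl21a-high cells. Between the highest class and the cells without Acta2, Epcam (1001 and 1015 CPM) and Krt5 (2661 and 2683) stood close together, while Krt14 was at 2568 and 1687. Ccl21a was at 10035 and 8881 CPM in the sums, and its median share of a cell's UMIs was 0.850% and 0.559%.

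**Figure D2:**
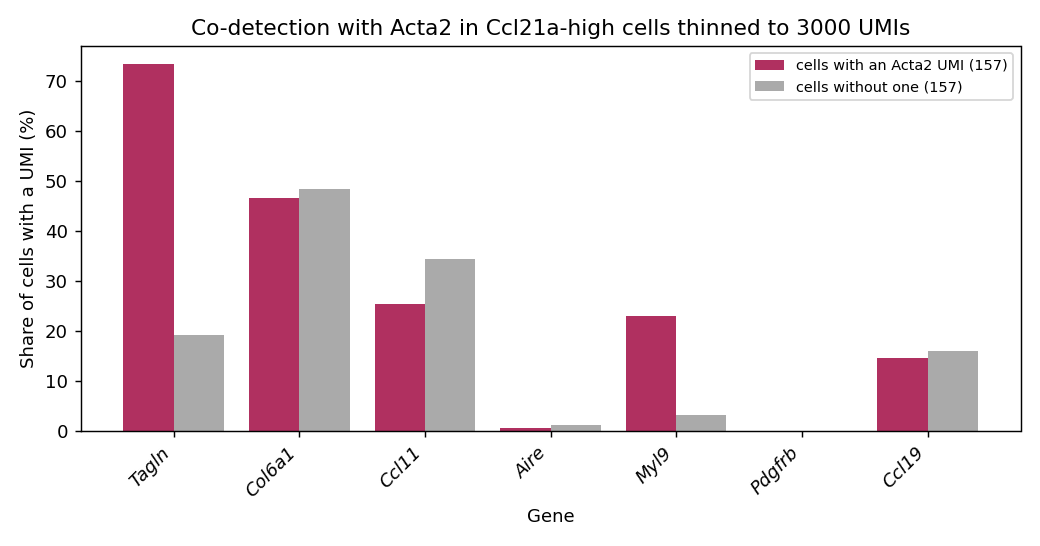
Share of Ccl21a-high cells with a UMI of each gene (percent), after thinning every cell to 3000 UMIs, in the 157 cells with an Acta2 UMI (red) and the 157 cells without one (grey). Tagln and Myl9 are found mostly beside Acta2, Col6a1 and Ccl19 about equally in both, and Pdgfrb in neither.

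Promoter sequence was read for the contractile genes, of which Tagln, Myl9 and Tpm2 varied with Acta2. The CArG box is the binding motif of serum response factor. In the 250 bases before the RefSeq start (GRCm38.p6), read on both strands, it was present in 4 of the 17 contractile genes in the RefSeq table (Myl9, Cnn2, Vcl and Srf) and in 1.62% of all 27025 genes there. The motif reads the same on both strands, so each site was counted once. The promoters of Myl9 (chr2:156775214-156775463, plus strand) and Acta2 (chr19:34255374-34255623, minus strand) are shown as a pair that varied together, 5′ to 3′ in the direction of the gene, with the CArG box in capitals. Tagln was not in the table.
Myl9: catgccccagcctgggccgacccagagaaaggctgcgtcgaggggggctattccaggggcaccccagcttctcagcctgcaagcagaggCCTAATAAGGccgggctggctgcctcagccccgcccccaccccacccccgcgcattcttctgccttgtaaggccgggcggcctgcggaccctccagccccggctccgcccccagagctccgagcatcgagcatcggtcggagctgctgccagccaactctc
Acta2: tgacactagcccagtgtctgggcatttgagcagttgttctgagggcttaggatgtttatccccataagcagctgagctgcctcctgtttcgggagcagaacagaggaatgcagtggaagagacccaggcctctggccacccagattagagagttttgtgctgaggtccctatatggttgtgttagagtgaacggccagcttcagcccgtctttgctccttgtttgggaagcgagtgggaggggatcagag
The Myl9 site lies 161 to 152 bases before the start. The strict motif, only A or T between CC and GG, has no match in this window of Acta2, which says only that these letters are not in it. The window holds ccctatatgg and ccttgtttgg, each with a single base that the strict motif does not allow and the search did not count. The search thus does not show that Acta2 lacks sites of serum response factor.

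Chemokine transcripts were abundant in the cells. Ccl21a (ENSMUSG00000094686.1, chromosome 4 at 42772860 to 42773993, minus strand, mm10, protein coding) had 46987 UMIs in the 339 cells and a median share of 0.695% of a cell's UMIs, with a highest share of 3.46%. The gene has near-identical copies on chromosome 4, between which the counting of reads could split, so values of single copies are uncertain. Ccl21d had 34 UMIs in all, with 3 and 16 (B6), 0 and 0 (BALB/c) and 8 and 2 (NOD). Ccl21b under its main identifier had 8 UMIs. The 250 bases before the start of Ccl21a and Ccl21d are shown by that of Ccl21a (chr4:42773992-42774241, minus strand), since 248 of 249 aligned bases were the same.
Ccl21a: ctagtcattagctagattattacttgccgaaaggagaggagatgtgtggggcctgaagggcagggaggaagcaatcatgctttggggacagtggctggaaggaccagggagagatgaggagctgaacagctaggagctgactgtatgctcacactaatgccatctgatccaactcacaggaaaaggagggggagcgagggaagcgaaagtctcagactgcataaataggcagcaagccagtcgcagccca
No CArG box lies in it on either strand.

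Ccl11, the eosinophil chemoattractant eotaxin, stood at 566 CPM against 22.8 in the other epithelial cells, with a UMI in 38.1% of the Ccl21a-high cells. Among the other epithelial cells, the 83 with at least 4 UMIs of Col6a1 and Col6a2 held 275 CPM of Ccl11 and a UMI in 41.0%; after thinning the shares were 29.9% of the Ccl21a-high cells and 28.4% of these. In the Ccl21a-high cells Ccl11 was unequal between mice, at 101 and 1595 CPM in the B6 mice, 134 and 435 (BALB/c) and 912 and 941 (NOD), so B6 spanned the values of the other strains. The CXCR3 ligands Cxcl9, Cxcl10 and Cxcl11, interferon-induced attractants of activated T cells, stood at 172, 722 and 854 against 85.4, 212 and 155 in the other epithelial cells. Aire-positive cells held more Cxcl9 (394) and about as much Cxcl10 (707) and Cxcl11 (747). Among the homeostatic chemokines, Ccl19, a second CCR7 ligand, stood at 105 against 58.4, Cxcl14 at 43.1 against 4.09 and Ccl25, the CCR9 ligand of the cortex, at 24.98 against 95.6.

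Genes outside the lists that led the cells were read as the 25 highest by ratio to the other epithelial cells. Scx, the tendon transcription factor scleraxis, came first, at 138 against 4.54 CPM, with a UMI in 48.4% of the cells. Gas1 (144 against 6.14) and Boc (153 against 20.8) encode co-receptors of Hedgehog, Apoe (1110 against 124) apolipoprotein E, Wfikkn2 (106 against 6.07) an inhibitor of myostatin and GDF11, and Tgfbi (181 against 15.5), Smoc2 (221 against 23.3) and Htra1 (320 against 43.4) secreted matrix-associated proteins. Scx, Gas1, Wfikkn2 and Apoe were also low in the Krt5/Krt14-positive cells below the Ccl21a threshold, at 8.34, 11.9, 11.7 and 149 CPM. The last of the 25, Reg3b, was no property of the group, since 1 cell held 99.8% of its UMIs.

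Interferon-stimulated genes were high, while most antigen presentation genes lay within 2-fold of the other epithelial cells. Of 32 interferon-stimulated genes with at least 10 CPM, 23 were at least 2-fold higher than in the other epithelial cells and none at least 2-fold lower. Within the strains 22, 18 and 26 of the 32 were higher, and 1, Rsad2 in BALB/c, was lower. The other epithelial cells of B6, which weigh more in the pooled sums, had less of the list, with a median log2 difference of 1.11 (BALB/c) and 1.07 (NOD) from B6. Ifit3 stood at 233 against 23.6 (134 against 7.44 within B6, 173 against 30.8 within BALB/c and 426 against 37.2 within NOD), Iigp1 at 499 against 81.1, Ifi44 at 254 against 41.9 and Isg15 at 789 against 221 CPM. Irf1 was equal at 93.6. The 8 class II presentation genes, Cd74 and Ciita included, were within 2-fold, with Cd74 (the invariant chain) at 5969 against 4107 and H2-Aa at 1988 against 1216, and Ciita, their coactivator, at 85.7 against 49.4. Aire-positive cells held 13269 CPM of Cd74. Of the 11 class I presentation genes, 2 were at least 2-fold higher and 0 at least 2-fold lower. Within the strains 0, 2 and 0 of the 11 were higher.

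Receptors and targets of developmental pathways were among the high genes. In the Notch list 7 of 11 genes were at least 2-fold higher (6, 3 and 5 within the strains), with the receptors Notch1 (85.4 against 36.8) and Notch2 (135 against 65.5) and the targets Hes1 (208 against 79.3), Hey1 (20.5 against 4.33) and Heyl (17.5 against 4.40). In the BMP and TGF-beta list 11 of 20 were at least 2-fold higher (12, 9 and 10 within the strains). These held the BMP-responsive Id1 (194 against 44.7) and Id2 (250 against 101), the activin antagonist follistatin Fst (80.2 against 3.99) and the receptor Tgfbr2 (27.9 against 6.14), while the ligand Bmp2 was lower (11.8 against 33.3) and Bmp4 stood at 0.393. In the Wnt list 6 of 15 were at least 2-fold higher (6, 5 and 4 within the strains), among them Wnt4 (169 against 68.0), Fzd2 (60.6 against 5.22) and Sfrp1, a secreted Wnt inhibitor (190 against 60.8), while the feedback target Axin2 was alike (10.6 against 9.72). Of 16 genes of the RANK, CD40 and lymphotoxin pathways 1 was at least 2-fold higher and 1 lower, with Tnfrsf11a (RANK) at 298 against 180, Relb at 157 against 133 and Tnfrsf11b (osteoprotegerin, the decoy receptor of RANK ligand) at 14.4 against 83.0. Of 23 epithelial and thymic transcription factors 8 were at least 2-fold higher, Snai2 (61.0 against 6.35), Zeb1 (99.5 against 36.8) and Wwtr1 (102 against 26.6) among them, and 4 lower, which were Elf3 (39.1 against 243), Klf4 (59.2 against 231), Ehf (135 against 336) and Klf5.

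Aire and the programs of mimetic mTEC were low. Aire stood at 5.70 CPM against 98.2 and had a UMI in 5.90% of the cells. Of 6 Aire-stage genes with at least 10 CPM, 1 was at least 2-fold higher and only Aire at least 2-fold lower. Within the strains 1, 2 and 1 of the 6 were at least 2-fold lower. The 9 genes of that list summed to 677 against 618 CPM. Fezf2, another of them, had a UMI in 71.4% of the Ccl21a-high cells and 44.8% of the other epithelial cells. All 8 tuft genes, all 8 enterocyte-hepatocyte genes that reached 10 CPM, all 6 such neuroendocrine genes and all 5 such ciliated genes were at least 2-fold lower, as were 7 of 8 microfold and 7 of 8 keratinocyte genes. Within B6 and BALB/c every tuft, enterocyte-hepatocyte, neuroendocrine and ciliated gene of these was again at least 2-fold lower. Within NOD it was 7 of 8 tuft, 5 of 8 enterocyte-hepatocyte, 5 of 8 microfold and all of the neuroendocrine, ciliated and keratinocyte genes. The exceptions in NOD included Reg3g, an antimicrobial lectin, at 17.9 against 13.4 CPM; the other epithelial cells of B6 held 5850. Pou2f3 stood at 10.6 against 135, and 8 of 10 mimetic lineage transcription factors were at least 2-fold lower. The lowest genes by ratio included Ccl20 (2.16 against 401), Tff3 (0.197 against 133) and Lyz1 (2.75 against 410). In the other epithelial cells of B6, BALB/c and NOD, Ccl20 stood at 909, 112 and 10.7 and Lyz1 at 923, 69.98 and 14.2. Pth (parathyroid hormone, 2.36 against 857) was no property of the other cells, since 1 cell without a strain held 99.7% of their Pth UMIs. Proliferation genes were low as well, with Mki67 at 10.8 against 34.7 and Top2a at 2.95 against 52.2. The cortical proteasome gene Psmb11 stood at 0.393. Of 6 cortical genes with at least 10 CPM, 1 was at least 2-fold lower and 1 at least 2-fold higher. The higher gene was Ctsl, a lysosomal protease of cortical epithelium, at 703 against 163. Within the strains 3, 1 and 1 of the 6 were at least 2-fold higher.

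The threshold on Ccl21a cut through a gradient. The lowest Ccl21a-high cell had 0.305% of its UMIs from Ccl21a and the highest excluded Krt5/Krt14-positive cell 0.2995%. In the 60 cells from 0.3 to 0.4%, Acta2 stood at 580 and Tagln at 394 CPM, and in the 64 cells from 0.2 to 0.3% they stood at 376 and 271. The 439 cells under 0.1% held 84.96 and 36.2 of them and 220.5 of Aire, which stood at 19.1 from 0.2 to 0.3% and 9.53 from 0.3 to 0.4%. Cells near the threshold were shallower, with median UMIs of 6867 and 7044 just below and above it and 22784 under 0.1%. The last class, at 2% or more, held 19 cells. The rule used Ccl21a and the keratins, so these values carry no test.

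**Figure D3:**
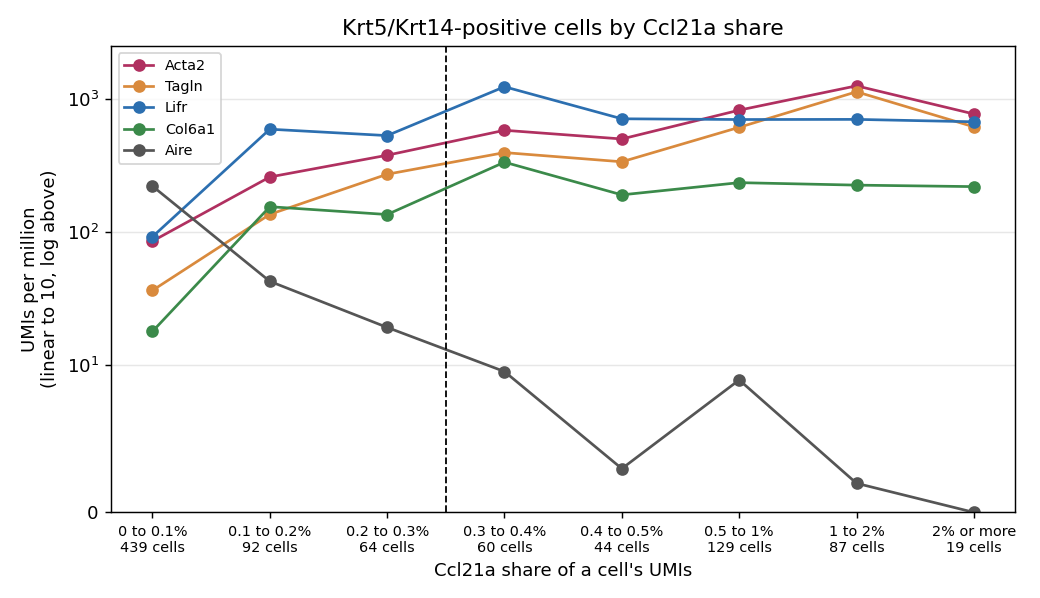
Summed level of 5 genes (CPM, linear up to 10 and logarithmic above) in Krt5/Krt14-positive, Ptprc-negative cells grouped by the Ccl21a share of their UMIs, with the number of cells under each group. The dashed line marks the 0.3% threshold. Acta2 and Tagln are higher in the groups above the line than in those below it, and Aire is lower.

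The share of Ccl21a-high cells differed between strains more than between mice of a strain. They made up 3.30% and 5.73% of the epithelial cells of the B6 mice, 22.04% and 26.4% of those of BALB/c and 30.6% and 33.9% of those of NOD. The means were 4.51% ± 1.72 (SD, n = 2) in B6, 24.2% ± 3.10 (n = 2) in BALB/c and 32.3% ± 2.32 (n = 2) in NOD, and the ranges of the 3 strains did not overlap. The counts behind B6 were 6 of 182 and 11 of 192 cells, with exact binomial 95% intervals of 1.22 to 7.04% and 2.89 to 10.0% that cover counting error only. The two-sided exact permutation test over the 90 arrangements of 6 mice gave p = 0.0667, the smallest it can give. Each pair of strains alone reached p = 0.333 in the exact permutation of 2 against 2 mice, again the smallest possible. With Ccl21a at 0.5% or more, the difference of NOD from BALB/c fell from 8.04 to 2.77 percentage points, the strains overlapped and the permutation p was 0.133. Without B6 1 the differences of BALB/c and NOD from B6 were 18.5 and 26.5 points, against 19.7 and 27.8 with it. The denominator is the sorted gate, so the shares do not count cells in the thymus. The rule used the count of Ccl21a, whose near-identical copies make values of single copies uncertain. Whether this acted unequally on the strains was not tested.

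**Figure D4:**
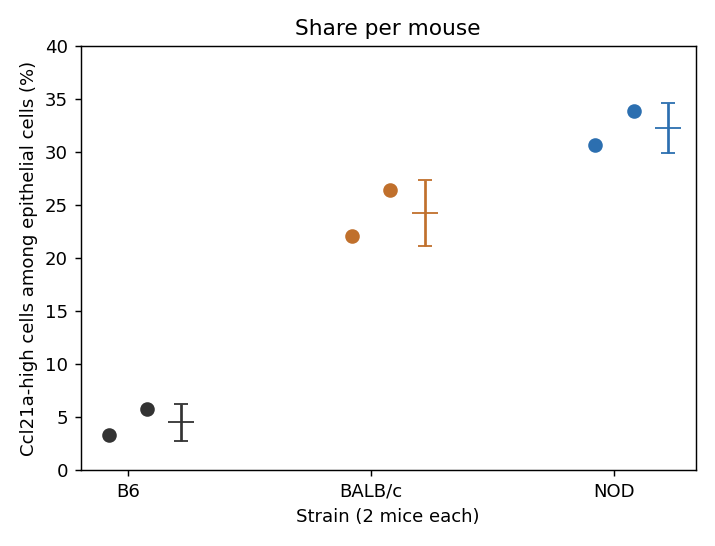
Ccl21a-high cells as a percentage of epithelial cells in each of the 6 mice (points), with mean and SD of the 2 mice of a strain (bars). The B6 mice lie at 3.30% and 5.73%, the BALB/c mice at 22.04% and 26.4% and the NOD mice at 30.6% and 33.9%.

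To ask whether the cells themselves differed between strains, counts were summed per mouse and tested with edgeR's quasi-likelihood test with Benjamini-Hochberg adjustment over 8396 genes, all 6 mice in 1 fit. BALB/c against B6 gave 20 genes higher (0.238%) and 42 lower (0.5%), 0.738% of those tested together. NOD against B6 gave 78 higher (0.929%) and 56 lower (0.667%), 1.6% together. NOD against BALB/c gave 144 higher (1.72%) and 87 lower (1.04%), 2.75% together. Without B6 1 the contrasts gave, in the same order, 54 higher and 69 lower, 120 and 97, and 342 and 238. Without the H2-Ea barcode alone they gave 27 and 42, 45 and 43, and 131 and 67. All 6 mice shared 1 library, and p-values rest on 2 mice a strain. In the main fit the mice of the 2 strains did not overlap in CPM for any called gene (62 of 62, 134 of 134 and 231 of 231). For a called gene, non-overlap therefore adds nothing to the call. In sums of cells, a change in cells that express a gene and a change in RNA per cell cannot be told apart.

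The summed level of Acta2 was lower in B6 than in both other strains. It stood at 253 and 342 CPM in the B6 mice, at 806.5 and 818.6 (BALB/c) and at 1026 and 1189 (NOD). The strains did not overlap, and neither did they for any other gene called in the contrasts with B6 (62 of 62 and 134 of 134). The log2 difference was 1.42 (SE 0.22, adjusted p = 0.00357) for BALB/c against B6 and 1.89 (SE 0.22, adjusted p = 0.000161) for NOD against B6. The B6 values rest on 74 Acta2 UMIs over 17 cells, and 2 cells of B6 1 and 4 of B6 2 had none. A single cell held 18 of the Acta2 UMIs of B6 1, and another held 25 of those of B6 2. The H2-Ea barcode and the barcode of 40965 UMIs gave 23.9% and 34.5% of the UMIs of B6 1 but 0 and 1 Acta2 UMIs. The NOD call held in all 16 alternatives; that of BALB/c was lost without BALB/c 2 (adjusted p = 0.0717), with a hashtag share of at least 90% (0.0941) and with the replicate number as block (0.334). Tagln, its closest companion over cells, varied within strains: 59.0 and 802 CPM in the B6 mice, 643 and 777 (BALB/c) and 518 and 1180 (NOD), with adjusted p from 0.815 to 0.960 in the 3 contrasts. Of 16 contractile genes tested, 1 was higher in BALB/c than in B6 (Acta2), 3 in NOD than in B6 (Acta2, Myh11 and Cald1) and 1 in NOD than in BALB/c (Des), and none was lower, against 0.238%, 0.929% and 1.72% higher over all genes; their median log2 differences were 0.32, 0.80 and 0.42, against 0.01, 0.00 and -0.00 over all genes. The call of Cald1 was lost without NOD 1 (adjusted p = 0.202), NOD 2 (0.199), BALB/c 1 (0.0677), BALB/c 2 (0.0844) and the H2-Ea barcode (0.0851), and that of Myh11 without B6 1 (0.0657), NOD 2 (0.197) and the H2-Ea barcode (0.0617).

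Between BALB/c and B6, the other list genes called were of immune function. H2-D1, a classical class I gene, stood at 2370 and 2031 CPM in the B6 mice and at 5365 and 5066 in the BALB/c mice (log2 1.21, SE 0.15, adjusted p = 0.000635). Class I genes have close relatives, and counts against a B6-based genome can differ by strain sequence, so the H2-D1 values are uncertain as levels. The part of alignment was not tested. Bst2, the interferon-induced tetherin, stood at 194 and 311 (B6) and 774 and 744 (BALB/c) (log2 1.56, SE 0.24, adjusted p = 0.00365). Tap2, a subunit of the peptide transporter of class I presentation, stood at 84.3 and 101 (B6) and 279 and 280.5 (BALB/c) (log2 1.56, SE 0.29, adjusted p = 0.0145). All 3 were higher in both BALB/c mice than in either B6 mouse, and the 2 strains overlapped for none of the 62 genes called in this contrast. Ccl19 was lower in BALB/c, at 24.1 and 33.2 against 75.9 and 249 (log2 -2.50, SE 0.43, adjusted p = 0.0158), and Ccl21d, at 0 UMIs in BALB/c, was at least 81.3-fold lower than in B6, from a floor of 3 UMIs over the strain, with the limit on near-identical copies given above. Of the 19 Ccl21d UMIs of B6, 16 lay in B6 2, without which the bound was 26.8-fold and the gene did not pass the low-count filter. Without B6 2 the Ccl19 difference was log2 -1.32 (adjusted p = 0.186), and its call was also lost without BALB/c 1 (0.103), NOD 1 (0.0866) or NOD 2 (0.0951). The call of Tap2 was lost without BALB/c 1 (0.0837) or NOD 2 (0.0605). Leaving out BALB/c 2 ended every call of these list genes but H2-D1 (adjusted p from 0.0694 to 0.15), and the replicate block ended all 6 (0.0851 to 0.436). All 6 held without B6 1 and without the H2-Ea barcode.

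Between NOD and B6, 23 list genes outside the rule were called, 19 higher and 4 lower in NOD. The interferon-stimulated list gave 8 of 32 tested genes higher and none lower, against 0.929% higher over all genes, with a median log2 difference of 0.89 against 0.00. Ifit3 stood at 92.8 and 171 CPM in the B6 mice, 191 and 163 (BALB/c) and 416 and 435 (NOD) (log2 1.68, SE 0.29, adjusted p = 0.00615 against B6). Bst2 stood at 723 and 838 in NOD (log2 1.62, SE 0.24, adjusted p = 0.00194 against B6). Both NOD mice lay above both B6 mice for each, and the 2 strains overlapped for none of the 134 genes called in this contrast. Psmb8, an immunoproteasome subunit, stood at 202 and 210 (B6), 364 and 379 (BALB/c) and 622 and 615 (NOD) (log2 1.58, SE 0.24, adjusted p = 0.00249). The other called genes of the interferon-stimulated list were Irf7, Irgm2, Ifi27l2a, Parp14, Iigp1 and Ly6a. Krt17, a keratin of basal and activated epithelium that the rule did not use, stood at 2656 and 3105 (B6), 3963 and 3737 (BALB/c) and 5566 and 7147 (NOD) (log2 1.14, SE 0.15, adjusted p = 0.000557). Sparc, a collagen-binding matrix protein, stood at 33.7 and 15.6 (B6) and 144 and 208 (NOD) (log2 2.86, SE 0.50, adjusted p = 0.00615).

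The 4 lower genes were Cxcl14, Id3, Fst and Hes6. Cxcl14 stood at 143 and 117 CPM in the B6 mice, 41.9 and 51.7 (BALB/c) and 15.8 and 18.0 (NOD) (log2 -2.92, SE 0.42, adjusted p = 0.00144). Id3, a target of BMP signals, stood at 261 and 451 (B6), 186 and 108 (BALB/c) and 61.1 and 68.7 (NOD) (log2 -2.46, SE 0.35, adjusted p = 0.00235). B6 was highest and NOD lowest for both. Of the 23 calls, Acta2 and Cxcl14 held in every alternative run; 2 held without NOD 2, 9 without NOD 1, 17 without B6 1, 19 without B6 2 and 12 without the H2-Ea barcode. Without NOD 2, Ifit3 was at an adjusted p of 0.0809, Bst2 at 0.0721, Psmb8 at 0.0631, Krt17 at 0.0642, Sparc at 0.0807 and Id3 at 0.0642.

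**Figure D5:**
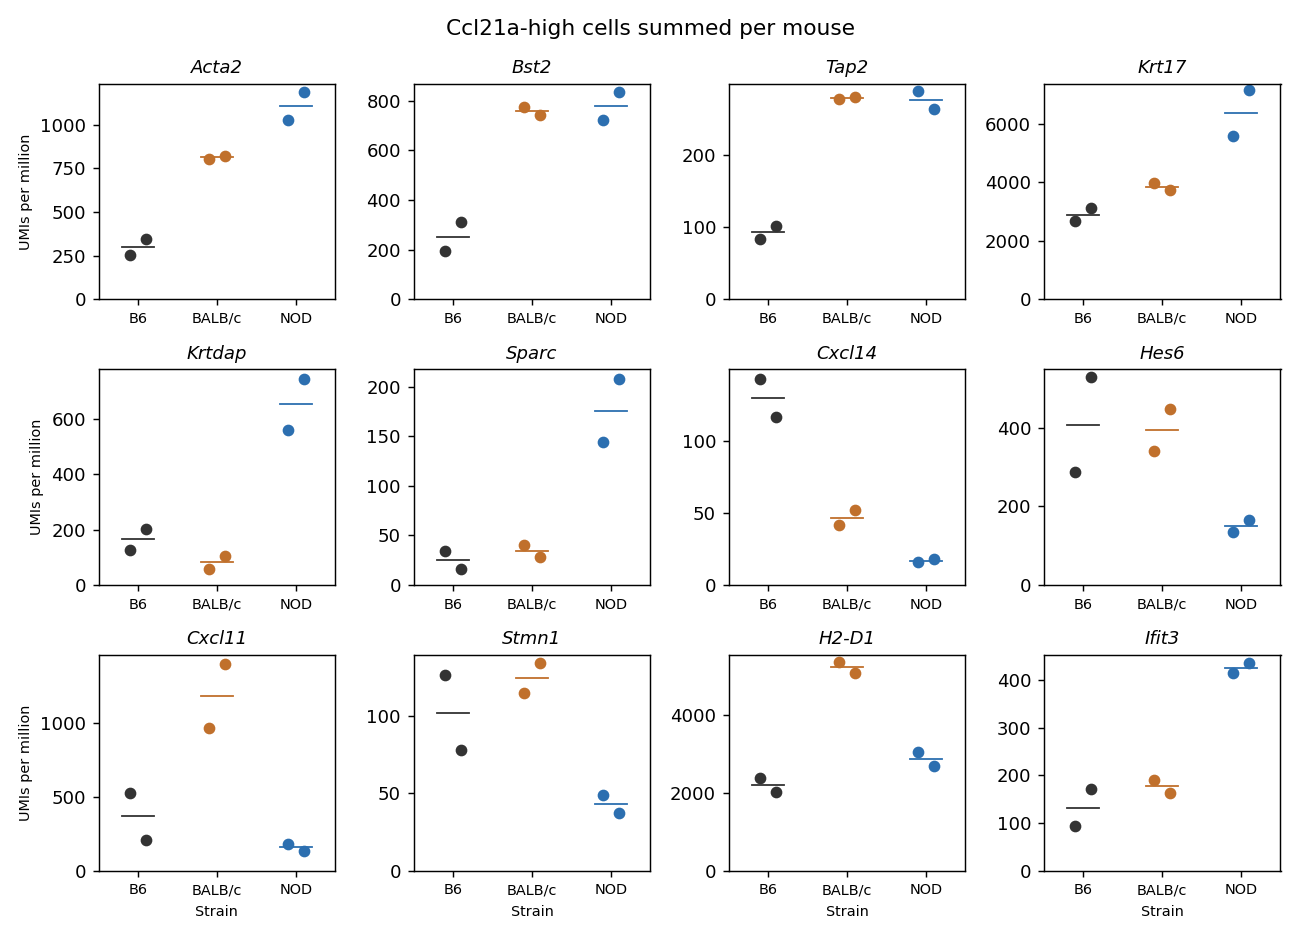
CPM of 12 genes in Ccl21a-high cells summed per mouse (points, linear axes from 0), with the mean of the 2 mice of each strain (lines). Acta2, Bst2 and Tap2 are lowest in B6, Krtdap, Sparc and Ifit3 highest in NOD, Cxcl11 and H2-D1 highest in BALB/c, and Hes6 and Stmn1 lowest in NOD.

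Promoter sequence was also read for the interferon-stimulated list, 8 of whose genes were called between NOD and B6. GAAA followed by any 2 bases and GAAA, the core of the interferon-stimulated response element, was present on either strand within 250 bases before the RefSeq start in 14 of the 23 interferon-stimulated genes found in the table, against 3.46% of all 27025 genes, and in 1 of 17 contractile genes. The promoters of 2 called genes are shown with the matches, overlapping ones joined, in capitals: Ifit3 (chr19:34583279-34583528, plus strand) and Bst2 (chr8:71537473-71537722, minus strand).
Ifit3: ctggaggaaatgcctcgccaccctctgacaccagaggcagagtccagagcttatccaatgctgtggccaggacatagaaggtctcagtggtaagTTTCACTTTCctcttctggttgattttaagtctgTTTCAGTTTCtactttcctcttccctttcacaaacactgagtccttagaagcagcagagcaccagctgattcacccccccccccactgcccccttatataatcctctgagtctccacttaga
Bst2: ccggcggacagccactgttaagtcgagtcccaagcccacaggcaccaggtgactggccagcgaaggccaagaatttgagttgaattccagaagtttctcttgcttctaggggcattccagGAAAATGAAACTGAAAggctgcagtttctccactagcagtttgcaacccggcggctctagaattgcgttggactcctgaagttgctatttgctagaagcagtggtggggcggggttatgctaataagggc
Ifit3 has matches on the opposite strand at 156 to 147 and at 122 to 113 bases before its start, and Bst2 overlapping matches from 130 to 115. A match is a description of the sequence and no measure of binding.

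Between NOD and BALB/c, the 23 list genes called were 14 higher and 9 lower in NOD. Over all genes tested, 1.72% were higher and 1.04% lower. Of the 23 calls, 2 held in every alternative. There were 17 left without the H2-Ea barcode, 13 with a hashtag share of at least 90% and 14 with DESeq2 in place of edgeR. Krtdap, a secreted protein of differentiating keratinocytes, stood at 58.8 and 103 CPM in BALB/c and 561 and 744 in NOD (log2 2.9998, SE 0.28, adjusted p = 1.39e-05), with B6 at 126.5 and 202. Requiring 4 keratin UMIs ended that call (adjusted p = 0.165), as did leaving out barcodes over 30000 UMIs (0.127) and a Ccl21a share of at least 0.5% (0.168). Sparc stood at 40.1 and 27.8 in the BALB/c mice, below both NOD mice (log2 2.45, SE 0.25, adjusted p = 1.73e-05), and Ccl19 at 158 and 188 in NOD against 24.1 and 33.2 (log2 2.57, SE 0.31, adjusted p = 0.000368). Sparc and Ccl19 held in all 16 alternatives. Rsad2 (viperin, an antiviral enzyme) stood at 33.9 and 23.4 (BALB/c) and 72.9 and 94.9 (NOD) (log2 1.63, SE 0.28, adjusted p = 0.0029), a call that ended without BALB/c 2 (0.259) or NOD 2 (0.195).

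Cxcl11 was lower in NOD than in BALB/c. It stood at 523 and 210 CPM in the B6 mice, 962 and 1392 (BALB/c) and 181 and 134 (NOD) (log2 -2.88, SE 0.39, adjusted p = 0.00619 for NOD against BALB/c). The gene is annotated as a polymorphic pseudogene (chromosome 5 at 92359544 to 92365485, minus strand, mm10). Cxcl10, a ligand of the same receptor, was higher in NOD, at 470 and 640 (BALB/c) and 1042 and 1222 (NOD) (log2 1.05, SE 0.24, adjusted p = 0.0276), though that call was lost in 7 of 16 alternatives. The Cxcl11 call ended without NOD 2 (0.125) and with 4 keratin UMIs required (0.155). Stmn1 (stathmin, a microtubule regulator of dividing and neural cells) stood at 115 and 135 (BALB/c) and 49.2 and 37.6 (NOD) (log2 -1.52, SE 0.26, adjusted p = 0.00225), and Hes6 at 342 and 448 and at 134 and 165 (log2 -1.38, SE 0.26, adjusted p = 0.00601). Myog, the muscle transcription factor, stood at 30.3 and 35.6 in the BALB/c mice, 1.97 and 1.64 in the NOD mice and 0 in both B6 mice, with a UMI in 5.60% of the Ccl21a-high cells. Without NOD 2 the adjusted p was 0.161 for Stmn1, 0.154 for Hes6 and 0.107 for Myog.

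Outside the lists, the largest differences were between presence and near absence. Gm8113 stood at 852 and 436 CPM in the B6 mice and 584 and 603 in the BALB/c mice and at 0 in both NOD mice, so that NOD was at least 222-fold lower than BALB/c. H2-T22, a nonclassical class I gene, stood at 228 and 249 (B6), 246 and 240.5 (BALB/c) and 11.8 and 8.18 (NOD) (log2 -4.58, SE 0.30, adjusted p = 7.37e-08 against BALB/c). Trim12a stood at 59.0 and 117 in the B6 mice, at 0.891 and 0 in the BALB/c mice and at 0 in both NOD mice. Gm11942 stood at 201 and 173 in NOD and 0 in BALB/c, with 0 and 7.78 in B6. Fxyd2, a regulator of the sodium pump, stood at 0 and 15.6 (B6), 258 and 262.5 (BALB/c) and 794 and 577.5 (NOD). The B6 contrasts of Trim12a and Fxyd2 and the NOD contrast with B6 of Gm8113, H2-T22 and Gm11942 were called with B6 1 left out and with the H2-Ea barcode left out. Class I and Trim genes have close relatives, and counts against a B6-based genome can differ by strain sequence, so such values are uncertain as levels; the part of alignment was not tested.

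Whether a strain difference was particular to the Ccl21a-high cells was tested by the interaction of strain and cell set, with the mouse as block, against the other epithelial cells of the same mice. It was called for 75 genes of 14411 (0.52%) between BALB/c and B6, 237 (1.64%) between NOD and B6 and 118 (0.819%) between NOD and BALB/c. Acta2 differed less between NOD and B6 in the Ccl21a-high cells (log2 1.89) than in the other epithelial cells (4.40), with an interaction of -2.39 (adjusted p = 0.0494); without B6 1 it was -2.01 (adjusted p = 0.562) and without the H2-Ea barcode -2.53 (0.0498). Hes6 went opposite ways, lower in NOD than B6 in the Ccl21a-high cells (-1.44) and higher in the other cells (1.03), with an interaction of -2.35 (adjusted p = 0.00419), and -2.95 without B6 1 (1.01e-05). Sparc was higher in NOD than in BALB/c in the Ccl21a-high cells (2.45) and stood at -0.38 in the others (adjusted p = 0.821), with an interaction of 2.82 (adjusted p = 0.000163). Stmn1 likewise was lower in NOD in the Ccl21a-high cells (-1.52) and stood at 0.96 in the others (adjusted p = 0.0577), with an interaction of -2.49 (adjusted p = 0.00025). The other epithelial cells are a mixture whose makeup also differs by strain, and its part in these differences was not tested.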

How the data were processed

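Single cells of 6 hashtagged mice were measured in 1 pooled droplet library. The authors deposited whole-number UMI counts per gene, hashtag and barcode, made with Cell Ranger 7.0.0 against mm10 per the file headers and the submitters' processing notes; the annotation release is not given in the sources used here. A barcode took the mouse whose hashtag held at least 80% of at least 100 hashtag UMIs. Both NOD hashtags carry the same replicate number in the labels and were kept as 2 mice. Counts of the chosen cells were summed per mouse and tested with edgeR 4.0.16 in R 4.3.3 (quasi-likelihood, TMM, low-count filter, Benjamini-Hochberg threshold 0.05), with DESeq2 1.42.0 as an alternative. Strain effects in other epithelial cells came from a separate fit of their sums per mouse, with strain only. The interaction came from 1 fit of both cell sets with the mouse as block, so it need not equal the difference of the separate values. No doublet caller was run, since hashtags mark doublets between mice only. Named genes were those of the gene lists, the 25 highest and 15 lowest by ratio, the 10 called genes that changed most each way per contrast, the 5 largest interactions per pair and the 10 closest to Acta2. Members and lists were chosen with earlier results of these data known. The fit was checked on counts simulated for all mice from 1 mean profile and 1 spread, with changes set in NOD. The simulation held no odd barcodes such as those of B6 1, so it cannot vouch for the contrasts with B6. Sums were made with numpy 2.4.6, pandas 2.3.3 and scipy 1.17.1, and plots with matplotlib 3.10.9. Some genes of the lists are counted but not reported here by name.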

Additional observations from a re-analysis of the deposited data

Results flagged for a closer look

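Several genes had a strain difference in the Ccl21a-high cells that differed from that in the other epithelial cells, by the interaction term of the edgeR fit. Values are log2 differences between the 2 cell sets. Between BALB/c and B6 it was 1.55 for Tap2. Between NOD and B6 it was -2.39 for Acta2, 2.35 for Cxcl16 (a membrane-bound chemokine), -5.79 for Fst, -2.35 for Hes6, -2.03 for Iigp1 and 1.62 for Plec (plectin, a linker of keratin to hemidesmosomes). Without B6 1 the calls of Tap2 (adjusted p = 0.0753), Acta2 (0.562), Cxcl16 (0.0743), Iigp1 (0.115) and Plec (0.127) were lost, and without the H2-Ea barcode those of Tap2 (0.0919), Iigp1 (0.464) and Plec (0.0761). Fst was lower in NOD in the Ccl21a-high cells (-1.60) and higher in the other cells (4.47). Between NOD and BALB/c it was -2.67 for Kremen2, 2.17 for Krt19, 1.45 for Krtdap, 2.43 for Rsad2, 2.82 for Sparc and -2.49 for Stmn1.

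The 5 largest interactions of each pair rest on genes at or near 0 UMIs in 1 of the sets, so the fitted values are no bounds. Between BALB/c and B6 they were 18.58 for Ighv3-6, 15.91 for Igkv1-110, -12.59 for Ndufa4l2, 10.43 for Ceacam10 and 10.13 for Tnip3. Between NOD and B6 they were 15.19 for Hamp, -14.32 for Tmem181c-ps, -12.04 for Nlrp10, 11.01 for Reg3g and 10.67 for Bcl2l15. Ndufa4l2 stood at 42.2 CPM in the Ccl21a-high cells of B6 1 and 0 in those of B6 2, Tmem181c-ps at 59.0 and 0, and Nlrp10 at 92.8 and 7.78. Without B6 1 the calls of Ndufa4l2 and Tmem181c-ps (adjusted p = 1 each), Nlrp10 (0.328) and Tnip3 (0.124) were lost, and without the H2-Ea barcode those of Ndufa4l2 and Tmem181c-ps (1 each) and Tnip3 (0.0503). Between NOD and BALB/c they were -19.40 for Ighv3-6, -12.58 for Igkv1-110, 10.59 for Ear1, 6.99 for Fam107a and 6.46 for Itln1. Ighv3-6 stood at 66.8 CPM in the Ccl21a-high cells of BALB/c 2 and at 0 in those of the other 5 mice.

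The 9 hashtags that belong to no mouse of the pool had 629 UMIs in 170 of the Ccl21a-high cells, at most 28 in a cell, which is 0.0431% of the 1458280 UMIs of the pool's own hashtags.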

How the results depend on the processing

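Differences in share kept their direction in every alternative. With Ccl21a at 0.5% or more they were 14.6, 17.4 and 2.77 percentage points for BALB/c against B6, NOD against B6 and NOD against BALB/c, and without barcodes over 30000 UMIs 33.5 and 11.5 for the last 2. Leaving out 1 mouse gave 17.5 to 21.9, 26.1 to 29.4 and 5.85 to 10.2.

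Counts of called genes moved most. Against 62, 134 and 231, no low-count filter gave 358, 475 and 477, and at least 10 cells a mouse, which drops B6 1, gave 123, 217 and 580. For BALB/c against B6, DESeq2 gave 103, Ccl21a at 0.5% or more 112, the 2 strains alone without a replicate block 38 and with the replicate block 2. The replicate numbers pair nothing in the labels, and deviations of same-numbered mice correlated at r = 0.037 in BALB/c and B6. For NOD against B6, a hashtag share of 90% gave 77 and leaving out the H2-Ea barcode 88. For NOD against BALB/c, Ccl21a at 0.5% or more gave 409 and 4 keratin UMIs 389. Leaving out 1 mouse gave 18 (without BALB/c 2) to 467 (without B6 2), 29 (without NOD 2) to 584 (without B6 2) and 65 (without BALB/c 2) to 584 (without B6 2).

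Interactions numbered 75, 237 and 118. They were 224, 474 and 302 without the low-count filter, 42, 100 and 58 at a hashtag share of 90%, and 115, 415 and 273 with 4 keratin UMIs. Leaving out the H2-Ea barcode gave 105 for NOD against B6, and leaving out barcodes over 30000 UMIs 36 for NOD against BALB/c. Leaving out 1 mouse gave 49 to 284, 253 to 393 and 96 to 368. The cause of these moves was not tested. Over the named single genes, 1346 values stayed on the same side of the threshold, 440 lost the call and 0 reversed. The alternatives on the H2-Ea barcode and on B6 and BALB/c alone and the counts within each strain were chosen after seeing the data. With 17 cells in B6, low genes limit every contrast with that strain.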

Other observations

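Some transcripts of other cell types came from single cells. Of the Lyz2 (lysozyme, a myeloid gene) UMIs in the Ccl21a-high cells, 88.7% lay in 1 cell, which put NOD 1 at 935.5 CPM against 0 to 16.9 in the other 5 mice. Of the Jchain (immunoglobulin joining chain) UMIs, 95.3% lay in 1 cell, which put BALB/c 2 at 537 CPM against 9.85 to 16.9 in the other 5 mice.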
